A study of Mus musculus with 20 samples.

Results

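The integrated stress response is represented here by 10 genes of the Atf4 and Chop branch, chosen by symbol: Atf3, Atf4, Atf5, Ddit3, Trib3, Sesn2, Chac1, Asns, Ppp1r15a and Nupr1. All 10 were found among the 20914 genes of the count table, and all 10 passed the filter on low counts. They were measured by RNA sequencing of the left lateral liver lobe in 10 HSD17B12lox/lox;Alb-CreCre/WT mice (KO) and 10 HSD17B12lox/lox;Alb-CreWT/WT mice (WT). All 20 mice were males of 8 weeks, of a strain labelled LiB12cKO, and both groups carried the floxed Hsd17b12 alleles. Cre was under control of the albumin promoter, a promoter of hepatocytes. No Cre-only group was analysed here, so the presence of Cre and the loss of Hsd17b12 cannot be told apart. Each library is 1 mouse, and no litter, batch or collection date is known for any of them.

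The integrated stress response starts with phosphorylation of the translation initiation factor eIF2 by 1 of several kinases that sense misfolded protein in the endoplasmic reticulum, missing amino acids, heme deficiency or viral RNA. General translation then falls, while the mRNAs of Atf4 and a few other factors, which carry upstream reading frames in their leaders, are translated more. ATF4 binds with C/EBP partners to composite elements in target genes and raises transcripts for amino acid synthesis, amino acid uptake, redox control and, through CHOP (the product of Ddit3), further stress genes. Because ATF4 is controlled in large part by translation, its mRNA level and its activity need not move together. In liver the response is known from amino acid restriction, endoplasmic reticulum stress and mitochondrial stress.

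The C/EBP-ATF composite element has the core TGATGNAA. It was searched on both strands in the 250 bases before each annotated start in RefSeq promoters of GRCm38.p6, which held 11 promoters for the 10 genes. It was present in 4 of the 10 genes, Atf3, Nupr1, Asns and Chac1, and in 3.45% of all 32851 promoters, or 3.91% of 27025 genes. Of these 4 genes, Atf3 and Nupr1 had the largest rises in KO and Chac1 was the only fall, so their matches are shown side by side with up to 30 flanking bases and the match in capitals.
Atf3, chr1:191183406-191183473, minus strand: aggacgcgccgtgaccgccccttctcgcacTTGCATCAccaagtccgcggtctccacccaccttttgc
Nupr1, chr7:126625543-126625610, minus strand: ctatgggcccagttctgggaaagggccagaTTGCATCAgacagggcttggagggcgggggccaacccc
Asns, chr6:7693210-7693262, minus strand: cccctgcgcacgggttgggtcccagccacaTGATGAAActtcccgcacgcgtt
Chac1, chr2:119351019-119351086, plus strand: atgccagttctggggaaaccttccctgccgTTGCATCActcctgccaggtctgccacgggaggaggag

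Atf3, Nupr1 and Chac1 thus held the same 8 letters, TTGCATCA, which is the reverse complement of TGATGCAA. The match ended 102 bases before the start in both Atf3 and Nupr1, 185 bases before it in Chac1 and 15 bases before it in Asns. For Asns this promoter start lay upstream of position 7693182, where the gene coordinates given below begin on the minus strand. The cyclic AMP response element TGACGTCA, a palindrome, was found in Ppp1r15a only, with 4 bases between it and the start, and in 1.55% of all promoters. The endoplasmic reticulum stress element, CCAAT and CCACG with 9 bases between them, searched on both strands, was in none of the 10 genes and in 0.113% of promoters. A match is a description of the letters in this window.
Ppp1r15a, chr7:45526269-45526310, minus strand: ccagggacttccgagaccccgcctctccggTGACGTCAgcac

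Most of the 10 genes had leaders with upstream start codons, and all 10 leaders were longer than the median over coding genes. In the principal GENCODE transcript 8 of the 10 had at least 1 ATG before the coding start, against 52.4% of 17009 coding genes. Ppp1r15a had 7 in a leader of 764 bases, Atf4 had 3 in 594 bases, Atf5 had 2 in 373 bases and Ddit3 had 2 in 186 bases, while Trib3 and Chac1 had 0. Asns, Atf3, Nupr1 and Sesn2 had 1 each, in leaders of 184, 252, 242 and 348 bases. The medians over all coding genes were 1 ATG and 165 bases. The part of leader length in these counts was not tested.

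Hsd17b12 itself averaged 47.8 ± 2.39 CPM in KO, against 152 ± 18.5 CPM in WT (SD, n = 10 each), and every KO mouse lay below every WT mouse. CPM is the count scaled to library size and TMM factor. Libraries held 16693195 to 29124124 assigned fragments, and TMM factors averaged 1.18 ± 0.0579 over the 10 KO mice and 0.851 ± 0.0600 over the 10 WT mice (SD). Multi-mapping fragments made up 2.09% to 8.46% of the total in KO and 3.38% to 14.1% in WT. On principal component 1, computed from 1000 genes of high variance, mouse KO_391 lay at -4.07, apart from the other KO mice (-58.2 to -28.5). Its share of multi-mapping fragments was also the highest of the KO mice, 8.46%, against 2.09% to 4.02% in the others. All 8 hepatocyte markers were lower in KO and their summed level was 51370 to 61943 CPM in KO and 88978 to 115670 CPM in WT. Of 8 resident macrophage markers 7 were higher, with sums of 289 to 560 CPM in KO and 140 to 294 CPM in WT. All 7 tested of 8 recruited and lipid-associated macrophage markers were higher, with sums of 46.7 to 177 CPM in KO and 18.1 to 42.5 CPM in WT. Of 6 stellate markers 5 were higher, with sums of 264 to 488 CPM in KO and 145 to 282 CPM in WT, and 2 of 5 sinusoidal endothelial markers were higher (140 to 179 CPM in KO, 99.6 to 190 CPM in WT). Red cell markers summed to 36.6 to 136 CPM in KO and 164 to 371 CPM in WT with no overlap, and 1 of the 3 tested was called lower. Among all tested genes 28.2% were called higher and 31% lower, so the endothelial and red cell counts were not far from the shares at large. The summed levels of neutrophil, T and NK cell, B cell and cholangiocyte markers overlapped between the groups, as did those of resident macrophage, stellate and sinusoidal endothelial markers. Of 3 tested neutrophil and 3 tested B cell markers 0 were called. The 1 tested of 6 T and NK cell markers was lower, and of 4 tested cholangiocyte markers 1 was higher and 1 lower. The part of these other cells in the results below was not tested, and in bulk liver fewer cells of a type cannot be told apart from less RNA per cell.

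Transcripts of the branch were mostly higher in KO. With edgeR's quasi-likelihood test at an adjusted p under 0.05, 8 of the 10 genes rose, 1 fell and 1 did not pass, whereas 28.2% of the 13670 tested genes were called higher, 31% lower and 59.2% in either direction. The 10 genes had a median log2 fold change of 0.93, and the whole set of tested genes had one of -0.025. Every KO mouse lay above every WT mouse for 2 of the 10 genes, Sesn2 and Ppp1r15a, against 7.1% of tested genes, and below every WT mouse for 0 of the 10, against 6.47%. Without mouse KO_391 the count was again 8 higher and 1 lower. The 10 genes and all lists below were chosen with earlier results of these data known, which limits what a comparison with all genes can show.

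**Figure D1:**
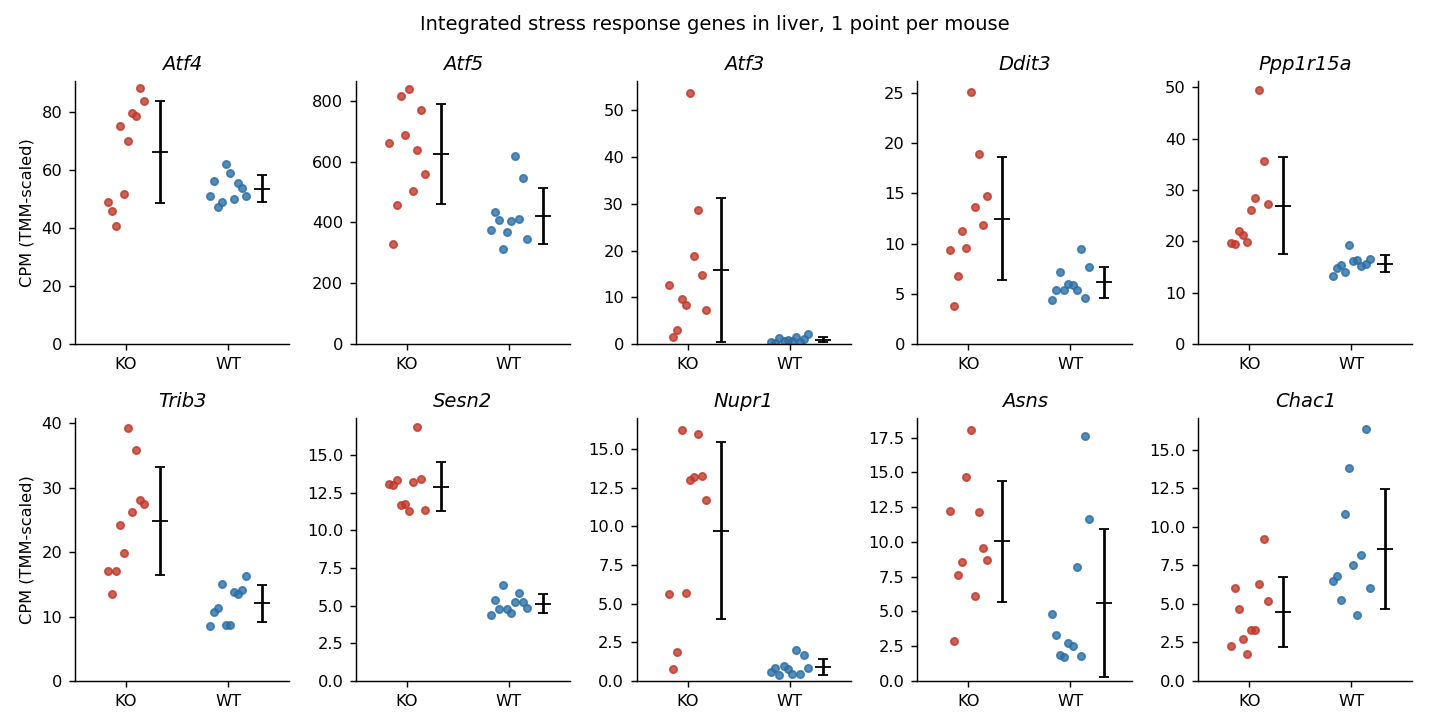
CPM (TMM-scaled, linear axes from 0) of the 10 genes, 1 point per mouse, KO left of WT (n = 10 each); the bar beside each group is mean ± SD. The groups do not overlap for Sesn2 and Ppp1r15a, while Atf3 and Nupr1 are spread widely in KO and low in WT, and Chac1 is lower in KO.

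The transcription factors at the head of the branch rose by different amounts. Atf4 (mm10 chromosome 15, 80255184 to 80257541, 3 exon blocks), the main effector of the response, ranged from 40.6 to 88.3 CPM with a median of 72.6 in KO, and from 47.4 to 62.3 CPM with a median of 52.5 in WT. In KO 6 mice lay above the highest WT mouse and 2 lay below the lowest, so the KO values spread to both sides of WT. Its log2 fold change was 0.31 (SE 0.13, adjusted p = 0.0395), the smallest of the rises. This call was lost in 13 of 28 alternatives, among them limma-voom (log2 fold change 0.29, adjusted p = 0.0610) and the omission of KO_425, KO_434, KO_435, KO_453, WT_389, WT_406, WT_407, WT_415, WT_429 or WT_441, each alone (0.28 to 0.31, adjusted p up to 0.0662). Exons of Atf4 overlap those of an unnamed gene on the other strand over 32.9% of its length, and that gene has no count of its own. How reads in the shared part were counted is not known, since whether the counting used strand is not given in those sources that were used.

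Atf5 (mm10 chromosome 7, 44812256 to 44816658, 4 exon blocks), a close relative of Atf4 that is abundant in liver, ranged from 330.1 to 838.5 CPM in KO (median 648) and from 313 to 617 CPM in WT (median 405.8). The KO mice lay above the WT maximum in 6 of 10 cases and within the WT range in 4. It rose by 0.57 on the log2 scale (SE 0.15, adjusted p = 0.00257 by edgeR). Short stretches of its exons overlap Nup62 (64 bases) and Il4i1b (82 bases).

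Atf3 (mm10 chromosome 1, 191170296 to 191183333, 4 exon blocks), a stress-induced bZIP factor that also belongs to the immediate early genes, had the largest rise of the 10. It ranged from 1.51 to 53.6 CPM in KO (median 11.2) and from 0.357 to 2.23 CPM in WT (median 0.785). In KO 9 mice exceeded the highest WT mouse, and KO_391 alone fell inside the WT range, for a log2 fold change of 4.04 (SE 0.57, adjusted p = 5.98e-06). The WT values rest on 8 to 47 counts per mouse, against 38 to 1377 in KO.

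Ddit3 (mm10 chromosome 10, 127290793 to 127296288, 4 exon blocks) encodes CHOP, the C/EBP-homologous factor that carries the response on to further genes. It ranged from 3.77 to 25.1 CPM in KO (median 11.6) and from 4.38 to 9.48 CPM in WT (median 5.66). KO mice lay above the WT range in 7 cases, and the lowest value of all 20 mice was that of KO_391. Ddit3 rose by 1.03 on the log2 scale (SE 0.25, adjusted p = 0.00123). Its exons share 68 bases with Mars on the other strand, which averaged 58.9 CPM in KO and 56.2 CPM in WT.

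The feedback and effector genes below ATF4 and CHOP also rose. Ppp1r15a (mm10 chromosome 7, 45522917 to 45526268, 3 exon blocks) encodes GADD34, the stress-induced subunit of the phosphatase that removes phosphate from eIF2 and so ends the response. It ranged from 19.5 to 49.4 CPM in KO (median 24.1) and from 13.3 to 19.2 CPM in WT (median 15.5). The lowest KO mouse was just above the highest WT mouse, and the log2 fold change was 0.78 (SE 0.14, adjusted p = 8.80e-05).

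Trib3 (mm10 chromosome 2, 152337425 to 152344060, 4 exon blocks), a pseudokinase that binds AKT and ATF4, ranged from 13.4 to 39.3 CPM in KO (median 25.2) and from 8.52 to 16.2 CPM in WT (median 12.5). In KO 9 mice lay above all WT mice and KO_391 lay among them, and Trib3 rose by 1.04 on the log2 scale (SE 0.18, adjusted p = 5.20e-05).

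Sesn2 (mm10 chromosome 4, 132492804 to 132510456, 10 exon blocks), a leucine-binding inhibitor of mTORC1 signalling that is also a p53 target, had the most even rise. It ranged from 11.3 to 16.9 CPM in KO (median 13.0) and from 4.38 to 6.36 CPM in WT (median 5.03). The groups were far apart, KO_391 included, and the SD of log2 CPM was 0.170 in KO and 0.165 in WT. The log2 fold change was 1.33 with an SE of 0.083 (adjusted p = 3.31e-11), the smallest adjusted p of the 10 genes.

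Nupr1 (mm10 chromosome 7, 126623246 to 126625470, 3 exon blocks), a small stress-induced chromatin protein, ranged from 0.755 to 16.2 CPM in KO (median 12.4) and from 0.380 to 1.98 CPM in WT (median 0.816). In KO 8 mice exceeded all WT mice, and the other 2, KO_391 and KO_402, were within the WT range. The log2 fold change was 3.40 (SE 0.47, adjusted p = 4.24e-06). Exons of Gm20367 on the other strand overlap 49% of the Nupr1 exon length, and Gm20367 was counted at 0.129 CPM in KO and 0.00935 CPM in WT.

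The metabolic enzymes Asns and Chac1 were not among the 8 genes called higher. Asns (mm10 chromosome 6, 7675171 to 7693182, 12 exon blocks), the asparagine synthetase, ranged from 2.90 to 18.04 CPM in KO (median 9.10) and from 1.75 to 17.6 CPM in WT (median 3.02). The WT range covered 9 of the 10 KO mice, because WT_429, WT_441 and WT_415 had 17.6, 11.6 and 8.20 CPM while the other 7 WT mice had 1.75 to 4.83 CPM. Its log2 fold change of 0.82 (SE 0.42, adjusted p = 0.0994) did not pass the test. Without WT_429 it was 1.21 with an adjusted p of 0.0105 by edgeR, and limma-voom with sample weights gave 1.33 (adjusted p = 0.00342); library size alone and both RPKM fits also passed. The authors' deposited table lists Asns at a log2 fold change of 0.96 with an FDR of 0.00225. The same 3 WT mice had the lowest multi-mapping shares of their group, 5.77%, 3.38% and 5.06%, against 9.38% to 14.1% in the other WT mice, and they lay nearest to the KO mice on principal component 1 (34.0, 22.5 and 24.4, against 37.5 to 45.6). The part of these differences in the Asns values was not tested.

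Chac1 (mm10 chromosome 2, 119351242 to 119354326, 3 exon blocks), a gamma-glutamylcyclotransferase that breaks down glutathione, fell. It ranged from 1.77 to 9.18 CPM in KO (median 3.99) and from 4.29 to 16.3 CPM in WT (median 7.18). In KO 5 mice lay below the lowest WT mouse and 5 lay within the WT range, and none lay above it. The log2 fold change was -0.95 (SE 0.29, adjusted p = 0.00764). With libraries scaled by their size alone it was -0.47 and did not pass (adjusted p = 0.130).

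The sizes of these changes depended on how the libraries were scaled. With library size alone the tested genes had a median of 0.44 and with TMM one of -0.025, a shift of 0.47 on the log2 scale. It called 9355 genes higher and 917 lower, against 3853 higher and 4233 lower with TMM. All 10 genes had the same sign under both scalings, and with library size alone 9 were called higher and 0 lower. A change of scaling moves all genes by about the same amount, and subtracting the median of all tested genes removes that shift. Near-equal values after this step are therefore built in and do not test the changes. Relative to that median, Atf4 was at 0.33 with TMM and 0.35 with library size, Ddit3 at 1.05 and 1.07, Asns at 0.85 and 0.82, and Chac1 at -0.92 and -0.92.

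**Figure D2:**
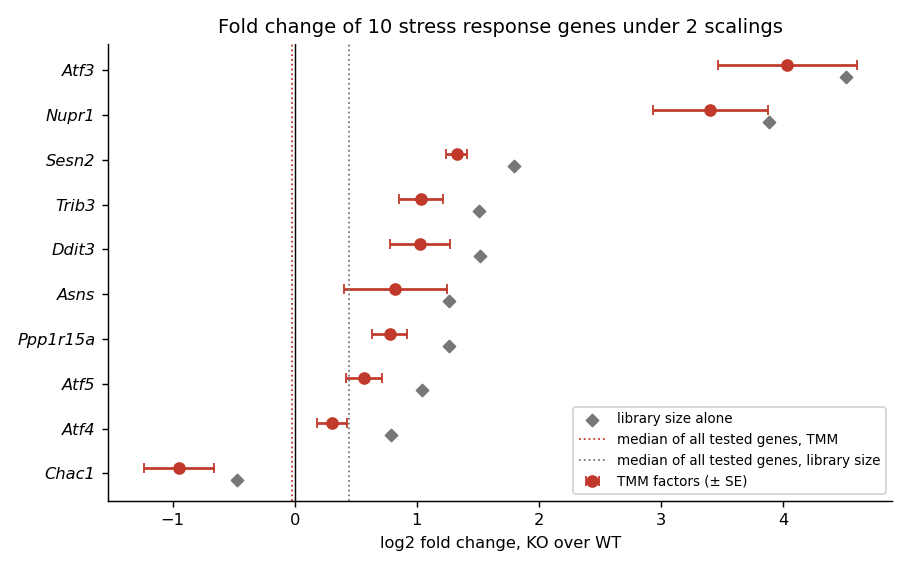
Log2 fold change of KO over WT for the 10 genes, with TMM factors (circles, ± SE) and with library size alone (diamonds); dotted lines mark the median of all tested genes under each scaling. From Atf3 (4.04) at the top to Chac1 (-0.95) at the bottom, each diamond lies to the right of its circle by about the distance between the dotted lines, which is 0.47.

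Per length of transcript, the levels of the 10 genes spanned a wide range. In the deposited RPKM, Atf5 was highest in both groups, with 314 ± 81.7 in KO, against 212 ± 46.6 in WT (SD, n = 10 each), followed by Atf4 with 38.4 ± 10.2 in KO and 31.0 ± 2.78 in WT. Both stood apart from the next gene by more than their SDs. In KO the order went on with Nupr1, Ddit3, Trib3, Ppp1r15a, Atf3, Asns, Sesn2 and Chac1, from 15.5 down to 2.85 RPKM, and each of these overlapped its neighbour within the SDs. In WT it went on with Ddit3, Ppp1r15a, Trib3, Chac1, Asns, Sesn2, Nupr1 and Atf3, from 7.05 down to 0.483 RPKM, also with each neighbour within the SDs. Nupr1 was thus at rank 3 in KO and 9 in WT, and Chac1 at rank 10 in KO and 6 in WT.

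KO livers differed from one another more than WT livers for most of the 10 genes. The SD of log2 CPM was larger in KO for 9 genes, for example 0.41 in KO and 0.12 in WT for Atf4, 0.43 and 0.14 for Ppp1r15a, and 0.76 and 0.33 for Ddit3. It differed little for Sesn2 (0.170 in KO and 0.165 in WT), and Asns had 0.73 in KO and 1.17 in WT. These SDs were not compared by a test. The share of all tested genes with a larger SD in KO is not given, nor are SDs without KO_391. Mouse KO_391 was the lowest KO mouse for 7 of the 10 genes (Atf3, Atf5, Ddit3, Trib3, Asns, Ppp1r15a and Nupr1) and KO_416 the highest for 5 (Atf3, Atf5, Ddit3, Trib3 and Asns). KO_416 was also the lowest KO mouse for Sesn2. KO_434 was the highest for Sesn2 and Ppp1r15a, and KO_435 for Atf4 and Chac1.

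**Figure D3:**
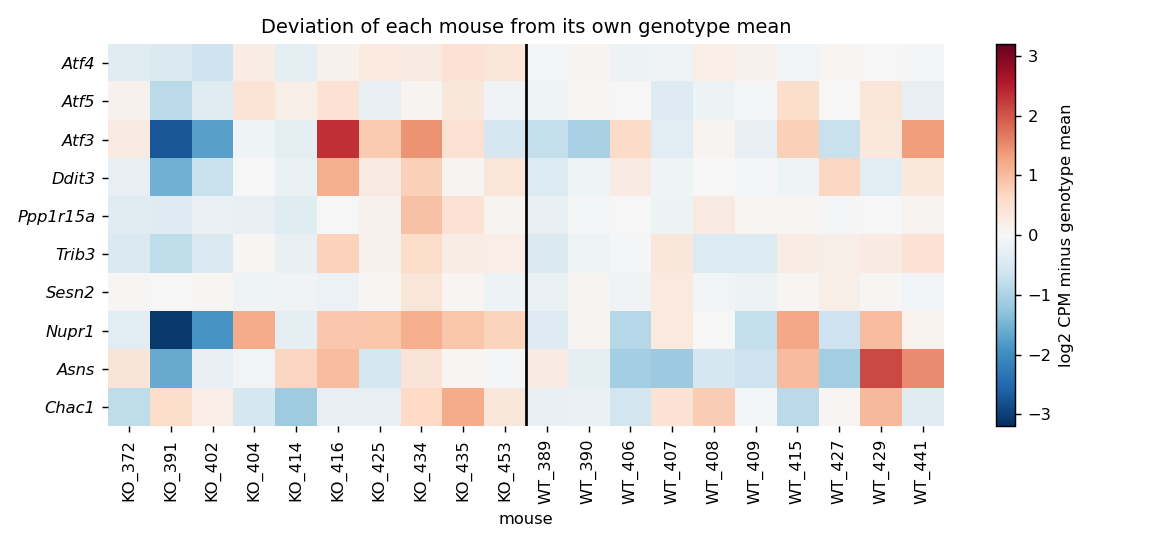
Log2 CPM of each gene in each mouse minus the mean of its own genotype, KO mice left of WT mice; red is above and blue below that mean. KO_391 and KO_402 are blue for Atf3, Ddit3 and Nupr1, KO_416 and KO_434 are red, and in WT the deepest red is that of Asns in WT_429.

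Within a genotype, some of these genes moved together across mice. Log2 CPM of Ddit3 and Trib3 had Pearson's r = 0.956 and Spearman's rho = 0.952 over 10 KO mice (permutation p = 2e-05 and 0.00013, adjusted over 12 relations 0.00024 and 0.00156), and r was 0.933 without KO_391 and KO_416. Over 10 WT mice r was 0.315 and rho 0.248 (adjusted permutation p = 0.565 and 0.731); the difference between the genotypes was not tested. Atf3 and Fos, an immediate early gene, had r = 0.917 and rho = 0.879 over 10 WT mice (adjusted permutation p = 0.00246 and 0.00876), with r = 0.823 without WT_441 and WT_390. In KO the values for Atf3 and Fos were r = 0.616 and rho = 0.758 (adjusted permutation p = 0.226 and 0.0520). The other 8 relations, which paired Ddit3 with Chac1, Atf4 with Asns, Atf3 with Ppp1r15a and Atf4 with Psat1 in each genotype, did not pass the correction by Pearson's r (lowest adjusted permutation p = 0.226). By Spearman's rho none of them passed either, and the nearest was Atf3 with Ppp1r15a in WT (rho = 0.745, adjusted permutation p = 0.0520). Ddit3 and Chac1 had r = -0.0489 in KO and -0.230 in WT.

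**Figure D4:**
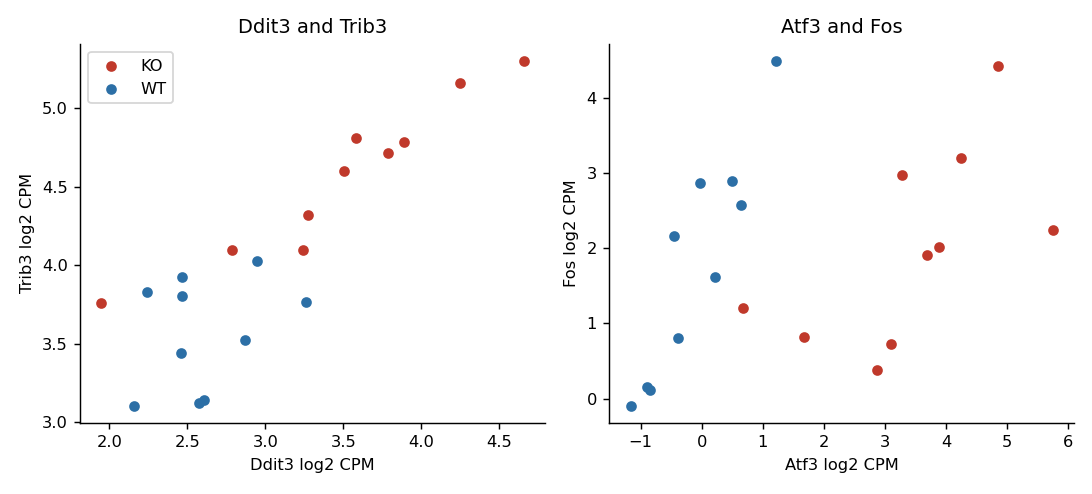
Log2 CPM of Trib3 against Ddit3 (left) and of Fos against Atf3 (right), 1 point per mouse, KO in red and WT in blue. Trib3 follows Ddit3 closely among KO mice (r = 0.956), and in the right panel 9 of 10 KO mice lie to the right of every WT mouse while the Fos values of the groups overlap.

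The genes whose deviation from the genotype mean was most like the mean deviation of the 10 genes were Camk1, F11r, Anxa4, Calm3 and Dnttip1. Pearson's r over the 20 mice was 0.895, 0.886, 0.876, 0.874 and 0.846, the highest among 10883 named genes whose log2 CPM averaged 1 or more. In the same order r was 0.914, 0.921, 0.936, 0.958 and 0.860 within KO. Within WT it was 0.860, 0.766, 0.571, 0.523 and 0.779. The mean was unweighted, so Atf3 and Nupr1 (SD of log2 CPM in KO 1.47 and 1.45) weighed more in it than Sesn2 (0.170). Their own log2 fold changes were 0.73, 0.39, 0.64, 0.63 and 0.43. These are descriptions picked from many genes, and all points share the depth and scaling of their library.

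Upstream of ATF4, transcripts of the eIF2 machinery were called about as often as genes at large. Of 15 genes 4 rose (26.7%), 5 fell (33.3%) and 6 did not pass, beside 28.2% higher and 31% lower among all tested genes, and their median log2 fold change was -0.024. The largest change was in Eif2ak3, which encodes PERK, the eIF2 kinase of the endoplasmic reticulum: it ranged from 15.8 to 32.8 CPM in KO (median 24.7) and from 9.05 to 19.0 CPM in WT (median 12.1), a log2 fold change of 1.02 (adjusted p = 2.34e-06 by edgeR). Eif2ak4, which encodes the amino acid sensor GCN2, rose by 0.40 and Eif2ak1, the heme-regulated kinase, fell by 0.19 on the log2 scale. Eif2ak2, the kinase activated by double-stranded RNA, had 0.063 (adjusted p = 0.535). Ppp1r15b, the constitutive counterpart of Ppp1r15a, fell by 0.31 on the log2 scale, with 78.9 ± 7.17 CPM in KO, against 98.1 ± 9.54 CPM in WT (SD, n = 10 each). Eif2b1, a subunit of the eIF2 exchange factor, had the lowest value of the list at -0.42. With library size alone 14 of the 15 were higher and 0 lower, beside 9355 higher and 917 lower among all 13670 tested genes.

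Other known ATF4 and CHOP targets mostly rose. Of 31 genes 28 were tested, of which 18 rose (64.3%), 5 fell (17.9%) and 5 did not pass, beside 28.2% higher and 31% lower among all tested genes. Their median log2 fold change was 0.68, for a list chosen with earlier results of these data known. The serine synthesis enzyme Psat1 rose by 3.38 on the log2 scale (5.57 ± 3.59 CPM in KO, against 0.529 ± 0.419 CPM in WT; SD, n = 10 each) and the mitochondrial folate enzyme Mthfd2 by 2.26, while Phgdh, the first enzyme of serine synthesis, was below the filter at 0.284 ± 0.287 CPM in KO and 0.187 ± 0.0614 CPM in WT. The secreted stress hormones Fgf21 and Gdf15 had log2 fold changes of 3.27 and 2.10 and both passed, and for Gdf15 the KO values of 27.7 to 73.3 CPM lay above the WT values of 4.57 to 18.9 CPM in every mouse. Tnfrsf10b, the death receptor DR5, had the largest rise of the list at 3.48, Vldlr, a lipoprotein receptor, rose by 2.84, and the translation repressor Eif4ebp1 by 0.83. Of the C/EBP partners Cebpg rose by 0.44 and Cebpb fell by 0.61 on the log2 scale.

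Cth, the cystathionine gamma-lyase that makes cysteine, had the lowest value of this list at -1.30, with 240.1 ± 92.6 CPM in KO, against 590.4 ± 165 CPM in WT (SD, n = 10 each). The other genes that fell, named after their values were seen, were Herpud1 of endoplasmic reticulum protein degradation at -1.12, the cystathionine beta-synthase Cbs at -0.98 and the amino acid carrier Slc38a2 at -0.69, beside Cebpb. The oxidase Ero1l rose by 0.27. Slc7a5, a leucine transporter subunit, had 0.28 (adjusted p = 0.0868 by edgeR), and Ddit4, an mTORC1 inhibitor also induced by glucocorticoids, had 0.57 (adjusted p = 0.491). Slc7a11, the cystine carrier, was below the filter and ranged from 0.0420 to 14.1 CPM in KO and from 0 to 0.184 CPM in WT. For the 12 aminoacyl-tRNA synthetases, several of which are ATF4 targets, 5 rose (41.7%) and 2 fell (16.7%), with a median of 0.11, beside the same 28.2% and 31% of all tested genes. With library size alone 12 were higher and 0 lower, beside 9355 higher and 917 lower among all 13670 tested genes. Only 1 synthetase was lower with DESeq2 size factors, with no filter, with the stricter filter and with the DESeq2 test. Gars had the highest value at 0.78, Cars the lowest at -0.22, and Mars and Wars did not pass at 0.067 and 0.15.

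The ATF6 and XBP1 branch of the endoplasmic reticulum stress response went the other way. Of its 22 genes 2 rose and 17 fell, with a median log2 fold change of -0.60, where 31% of all tested genes were called lower. Hspa5, the chaperone BiP, fell by 0.32 on the log2 scale, with 456 ± 41.8 CPM in KO, against 569 ± 111 CPM in WT (SD, n = 10 each). Xbp1 fell by 0.60, the cofactor Sdf2l1 by 1.64 (15.2 ± 3.86 CPM in KO and 47.2 ± 17.97 CPM in WT) and Creld2 by 1.16, while the co-chaperone Dnajb9 rose by 0.59 and was the highest of the list. With library size alone 7 of the 22 were higher and 7 lower, beside 9355 higher and 917 lower among all 13670 tested genes. The hepatocyte markers given above were lower in the same libraries, and their part in these falls was not tested.

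**Figure D5:**
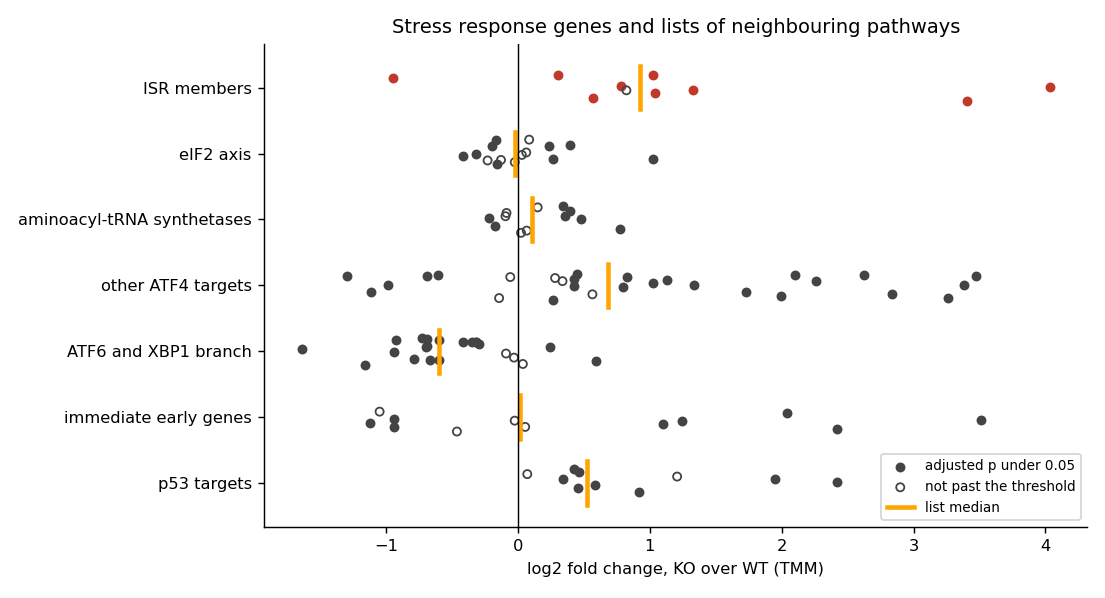
Log2 fold change of KO over WT (TMM) for each tested gene of 7 lists, filled where the adjusted p was under 0.05 and open where not; the orange line is the list median. The stress response genes (red) and other ATF4 targets have medians of 0.93 and 0.68, and the ATF6 and XBP1 branch has a median of -0.60.

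Immediate early genes and p53 targets were read beside the branch because they share some of its members. Of 12 tested immediate early genes 5 rose (41.7%) and 3 fell (25.0%), not far from the 28.2% and 31% of all tested genes, with a median log2 fold change of 0.016. Ier3, a survival factor, was the highest at 3.51 and Junb the lowest at -1.12. Jun rose by 1.24, whereas Fos had 0.055 (adjusted p = 0.946 by edgeR), with 5.72 ± 6.12 CPM in KO, against 5.46 ± 6.45 CPM in WT (SD, n = 10 each), and Egr1 had -1.05 (adjusted p = 0.111). Of 10 p53 targets other than Sesn2, 8 rose and 0 fell, with a median of 0.53, where 28.2% of all tested genes were called higher and 31% lower. Leaving out 1 mouse gave 6 to 9 of them higher. The p53 ubiquitin ligase Mdm2 rose by 0.34, Eda2r was the highest at 2.42, Sesn1, the paralogue of Sesn2, was the lowest at 0.071 (adjusted p = 0.377), and the cell cycle inhibitor Cdkn1a had 1.21 (adjusted p = 0.0595).

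In the authors' deposited table, Atf4 had a log2 fold change of 0.26 with an FDR of 0.113, and the other 9 genes had an FDR of at most 0.0135. That table gives Atf3 at 2.66, Nupr1 at 2.24 and Chac1 at -0.82, in the same directions as above.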

How the data were processed

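Liver RNA of 20 mice was analysed, 10 KO and 10 WT, with groups taken from the sample titles. The authors deposited raw fragment counts per gene, a normalized signal and RPKM; Rsubread, RefSeq, mm10 and ROTS appear in the names of their files, while HISAT2 2.0.5 and DESeq2 are listed by the submitters' processing notes. TMM-scaled CPM recomputed over all genes of the count table matched the deposited signal to a relative deviation of at most 5.11e-15. The CPM and TMM factors given in this report instead used library sizes and factors of the genes that passed the filter. RPKM, as deposited, corrects for exon length too. The authors' table gives a log2 fold change, p-value and FDR per gene, per the file headers. Of the authors' fragment statistics 23 columns were not used here.

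Genes were tested with edgeR 4.0.16 (R 4.3.3): filterByExpr (minimum count 10, minimum total 15) kept 13670 of 20914 genes, and the rest held 0.0858% of fragments. TMM factors, robust quasi-likelihood F tests and Benjamini-Hochberg adjustment over all tested genes at 0.05 followed. The test was run on simulated counts before use. Log2 CPM had a prior count of 2. Relations used two-sided permutation tests with 100000 resamples. Alternatives used DESeq2 1.42.0, limma 3.58.1, other scalings and filters, RPKM with pseudocounts of 0.1 and 1, and the omission of each mouse.

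The 10 genes and the lists were chosen with earlier results of these data known. Named genes were the 10 members, Hsd17b12, genes picked by role from each list, the highest and lowest of each list, and the 5 most alike in pattern. No library was a repeat of another: chi-square per degree of freedom was 12.8 or more in each of 90 within-genotype pairs. Sequences are from RefSeq tables of GRCm38.p6 and GENCODE transcripts.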

Additional observations from a re-analysis of the deposited data

Results flagged for a closer look

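Sesn2 in mouse KO_434 lay apart from the other KO mice: its log2 CPM was 4.08 (16.9 CPM), against 13.4 CPM in the next KO mouse, a gap of 0.572 of the range in KO where 0.466 is the critical value. It was 1 of 20 groups examined, and chance flags about 1 in 20.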

How the results depend on the processing

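No paired analysis was possible because the mouse numbers in the titles are not shared between genotypes. Over 28 alternatives per gene, Atf3, Atf5, Ddit3, Trib3, Sesn2, Ppp1r15a and Nupr1 kept their direction and stayed past the threshold; Atf4 did so in 15, Chac1 in 27 and Asns stayed short of it in 23. Leaving out 1 mouse gave 7 to 8 members higher and 1 lower, with log2 fold changes of 3.62 to 4.28 for Atf3 and 0.72 to 1.21 for Asns. With log2(RPKM + 1) Atf3 was at 2.21, where the pseudocount lowers the change of low genes, and Asns passed at 0.83 (adjusted p = 0.0258).

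With library size alone 9355 genes were higher and 917 lower, and 0 of the 10 genes were lower. In the eIF2 list 14 were higher and 0 lower there, among synthetases 12 and 0, in the ATF6 and XBP1 branch 7 and 7, and 3 other ATF4 targets were lower. Under that scaling r was 0.0194 for Ddit3 and Chac1 in KO and 0.475 for Atf4 and Asns in WT, both with the sign turned and neither past the threshold (adjusted permutation p = 0.958 and 0.251). Of the synthetases 1 was lower with DESeq2 size factors, no filter, the stricter filter and DESeq2. Leaving out 1 mouse gave 3762 to 4180 genes higher and 3704 to 4289 lower, 3 to 6 eIF2 genes lower (3 without KO_372, KO_425, KO_434 or KO_435) and 1 to 2 synthetases lower. The cause of these changes was not tested. Precision for Atf3 and Nupr1 is limited in WT, where some mice had 6 to 8 fragments.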
